A study of Mus musculus with 8 samples.

Results

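The transcripts of 7 subunits of the GABA-A receptor, Gabra2, Gabra3, Gabra4, Gabra5, Gabrb1, Gabrb2 and Gabrd, were followed in the hippocampus of 8 adult mice. They were chosen by gene symbol, and all 7 were found among the 24527 gene rows of the deposited count table. The mice were wild-type C57BL/6J males of 20 weeks. Mothers of the 4 control mice ate a low-phytoestrogen feed with 0 mg of bisphenol A (BPA) per kg, and mothers of the 4 BPA mice ate that feed with 50 mg of BPA per kg, through gestation and lactation. From weaning on postnatal day 21 all 8 mice ate the control feed, so the groups differ in early exposure alone as far as the labels say. BPA is a plastic monomer that can act on hormone receptors, and the series title links the exposure to neurotransmitters and neuroactive steroids. Polyadenylated RNA of whole dissected hippocampus was sequenced, 1 library per mouse.

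GABA-A receptors are chloride channels built from several subunits around a central pore, and they carry most of the fast inhibition in the hippocampus. Synaptic receptors respond briefly to GABA released by a terminal. Extrasynaptic receptors, which contain the delta subunit (Gabrd) or the alpha subunits of Gabra4 and Gabra5, respond to ambient GABA and give a steady tonic current. Neuroactive steroids such as allopregnanolone bind within the membrane-spanning part of the receptor and enhance its current, and receptors with the delta subunit are known for a strong response to low steroid levels. In the hippocampus, delta and the Gabra4 subunit are typical of dentate granule cells, and the Gabra5 subunit of pyramidal neurons.

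For none of the 7 subunits was a difference between BPA and control mice detected beyond the spread between animals. Levels are given as CPM, read counts scaled to the library total with TMM factors, and differences as log2 fold changes of BPA against control with their standard error (SE). The edgeR quasi-likelihood test called 0 of the 7 at an adjusted p of 0.05, against 0% of the 15434 genes tested, and 0 of the 7 had an unadjusted p under 0.05, against 4.52% of all genes. DESeq2 also called 0 of the 7, against 0.0337% of the 20749 genes to which it gave a p, with 0 at an unadjusted p under 0.05 against 3.02%. In none of the 7 were the groups free of overlap, which held for 2.79% of all genes. For 3 subunits the estimate was above 0 and for 4 below, with a median of -0.022 against 4.91e-05 over all genes. For the fold, the 95% interval stayed within 1.5-fold either way for 7 of 7 subunits, against 85.4% of all genes tested. It stayed within 1.2-fold for 6 of 7, with Gabrd as the exception, and the share of all genes was not computed for that limit. In whole tissue, fewer cells of a type and less RNA per cell cannot be told apart.

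BPA libraries were deeper, at 43.1 to 54.01 M (mega) counts against 27.1 to 40.8 M in controls, so depth and exposure cannot be told apart. Neuron markers (Slc17a7, Camk2a, Neurod2, Neurod6 and Snap25) were present in every library. Their summed level was 7876 to 9307 CPM in the control group and 8131 to 8594 CPM in the BPA group. Gabra6, a subunit known from cerebellar granule cells, had 5 reads over all 8 libraries. The summed level of 10 choroid plexus markers, a neighbouring tissue, reached 3098 CPM in control mouse 2 and 828 CPM in BPA mouse 3.

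The subunit genes lie in clusters, and 2 members start head to head. Gabra4 (minus strand, chr5:71569749-71658308 in mm10, GENCODE M21) and Gabrb1 (plus strand, chr5:71658113-72149037) run away from each other with overlapping 5′ ends and share 46 bases of exon, 0.756% of Gabra4's and 0.332% of Gabrb1's exon length. Gabra5 (minus strand, chr7:57407672-57510059) shares 148 bases, 4.98% of its exons, with the antisense gene Gm9962. The sources used here do not say whether reads were counted by strand, and some reads of these 3 genes may belong to the partner. Promoter windows of the pair and of Gabra5 are printed because Gabra4 ranked the 8 mice much as Gabra5 did and not as Gabrb1 did. For Gabrb1 the first of 2 RefSeq start sites is shown, at 71657921, which lies before the GENCODE start given above. The exon overlap of Gabrb1 with Gabra4 under RefSeq was not computed. The windows run from 250 bases before the RefSeq start site to 50 after it, 300 bases each on GRCm38.p6, 5′ to 3′ on the gene's strand; capitals mark GC boxes (GGGCGG) and the EGR motif (GCGNGGGCG), searched on both strands.
Gabra4 chr5:71658259-71658558: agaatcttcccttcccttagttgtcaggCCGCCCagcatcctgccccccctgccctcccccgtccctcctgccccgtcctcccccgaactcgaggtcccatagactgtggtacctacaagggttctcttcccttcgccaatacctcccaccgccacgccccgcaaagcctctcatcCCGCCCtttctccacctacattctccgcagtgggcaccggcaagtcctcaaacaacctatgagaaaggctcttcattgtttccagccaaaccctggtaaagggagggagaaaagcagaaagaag
Gabrb1 chr5:71657671-71657970: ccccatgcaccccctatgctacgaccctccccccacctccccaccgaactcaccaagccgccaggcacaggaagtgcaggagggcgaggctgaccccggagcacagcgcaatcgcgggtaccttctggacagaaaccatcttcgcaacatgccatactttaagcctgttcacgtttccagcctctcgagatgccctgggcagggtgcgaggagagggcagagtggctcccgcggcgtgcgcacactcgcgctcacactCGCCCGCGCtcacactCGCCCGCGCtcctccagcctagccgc
Gabra5 chr7:57510010-57510309: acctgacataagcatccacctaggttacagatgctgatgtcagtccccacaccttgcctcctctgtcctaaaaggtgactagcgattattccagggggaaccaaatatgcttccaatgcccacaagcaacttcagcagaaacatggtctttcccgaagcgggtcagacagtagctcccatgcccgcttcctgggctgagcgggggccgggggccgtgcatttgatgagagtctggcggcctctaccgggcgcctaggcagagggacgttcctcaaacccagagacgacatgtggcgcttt
The Gabra4 window holds 2 GC boxes and 0 EGR motifs, the Gabrb1 window 0 and 2, and the Gabra5 window neither. Of all 32851 RefSeq promoter windows of this length, 35.7% hold a GC box and 5.55% an EGR motif. The TATA box (TATAAA) and the CRE (TGACGTCA), present in 13.6% and 1.79% of all windows, are in none of the 3. A start-site window was found for 6 of the 7 members.

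The delta subunit showed the largest difference of the 7, and it was uneven among the control mice. Gabrd (chromosome 4, 155384980 to 155398112) was at 9.54, 12.2, 12.2 and 9.41 CPM in control mice 1 to 4 and at 11.8, 12.1, 12.4 and 12.5 CPM in BPA mice 1 to 4. Control mice 1 and 4 lay below all other mice, while control mice 2 and 3 lay within the range of the BPA group. The control mean was 10.9 ± 1.59 CPM and the BPA mean 12.2 ± 0.342 CPM (SD, n = 4 each), a log2 fold change of 0.17 ± 0.092 (fold 1.12, 95% interval 0.977 to 1.29; edgeR unadjusted p 0.0939, adjusted p 0.955). All 4 BPA mice were above the control mean. The control group varied by 14.7% (SD over mean) where counting alone gives 5.21%, and the BPA group by 2.81% where counting alone gives 4.21%. Gabrd rests on 247 to 647 reads per library, the fewest of the 7; the 95% counting interval was 8.28 to 10.7 CPM in control mouse 4 and 10.8 to 12.8 CPM in BPA mouse 1, the lowest BPA value. The log2 fold change was 0.11 without control mouse 1 and likewise without control mouse 4. It was 0.23 without control mouse 2 (edgeR unadjusted p 0.0277, adjusted p 0.967) and without control mouse 3 (edgeR unadjusted p 0.0326, adjusted p 0.639), and 0.22 without both control mouse 2 and BPA mouse 3, the choroid plexus libraries (edgeR unadjusted p 0.0427, adjusted p 0.841). Over all alternatives tried the adjusted p ran from 0.639 to 1.00.

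**Figure D1:**
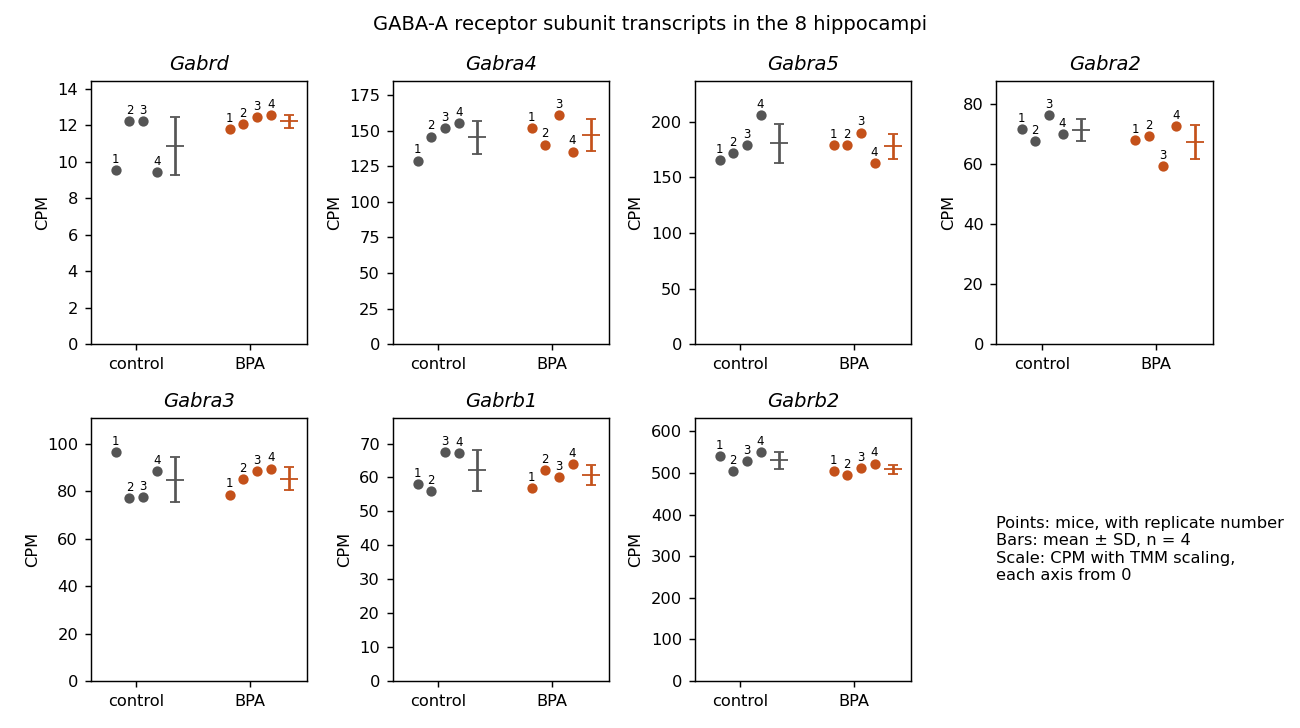
CPM with TMM scaling of each subunit in the 4 control (grey) and 4 BPA (orange) mice, numbered by replicate, with the mean ± SD of the group. Control mice 1 and 4 are low for Gabrd, at 9.54 and 9.41 CPM, and the groups overlap for all 7 subunits.

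Gabrd stood beside the dentate granule cell markers. The mean log2 CPM of 12 dentate markers was 5.45 and 5.55 in control mice 1 and 4, 5.91 and 5.89 in control mice 2 and 3, and 5.80 to 5.89 in BPA mice. The pair of mice with low Gabrd was thus also the pair with low dentate markers. All 12 markers were detected, their summed level ran from 768 to 1061 CPM in the control group and from 959 to 1061 CPM in the BPA group, and 12 of 12 had an estimate above 0, with a median log2 fold change of 0.15 and 0 past the edgeR threshold. Prox1, the transcription factor that defines granule cells, was at 85.02 and 87.1 CPM in control mice 1 and 4 and at 117 to 131 CPM in the other 6 mice. Prox1 was 1 of 8 among the 12 markers for which both mice lay below the other 6; Calb1, Rfx3, Lct and Pdzd2 did not set both apart. Markers of CA1 pyramidal neurons stood the opposite way in the same mice, with a mean log2 CPM of 8 markers of 6.11 and 6.09 in control mice 1 and 4 against 5.77 to 5.93 in the other 6. For 5 of these 8 markers both mice lay above the other 6. Of the 8 markers 1 had an estimate above 0 and 7 below, with a median log2 fold change of -0.11 and 0 past the edgeR threshold. With the dentate marker level as a covariate, a fit chosen after the data were seen, the log2 fold change of Gabrd was 0.047 ± 0.069. Without control mice 1 and 4 it was -0.0027 ± 0.073; these mice are the lowest of the 8 for Gabrd, so a smaller difference follows from leaving them out. Across the 8 mice Gabrd gave Pearson's r of 0.973 with the dentate list (exact permutation p = 0.00501, adjusted over 77 relations of members and marker lists 0.253). With the CA1 list r was -0.872 (exact permutation p = 0.0279, adjusted 0.269), and with the CA3 and CA2 list -0.711 (exact permutation p = 0.0479, adjusted 0.369). By Pearson's r 0 of the 77 relations passed after adjustment. The adjusted value of 0.253 was not particular to Gabrd. Gabra2 had it with the cerebellar granule cell list (r = -0.903, exact permutation p = 0.00843), and Gabrb1 with the interneuron list (r = 0.808, exact permutation p = 0.00987). Without control mice 1 and 4, r of Gabrd was 0.716 with the dentate list and 0.388 with the CA1 list. What any list contributes to the Gabrd values was not tested.

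**Figure D2:**
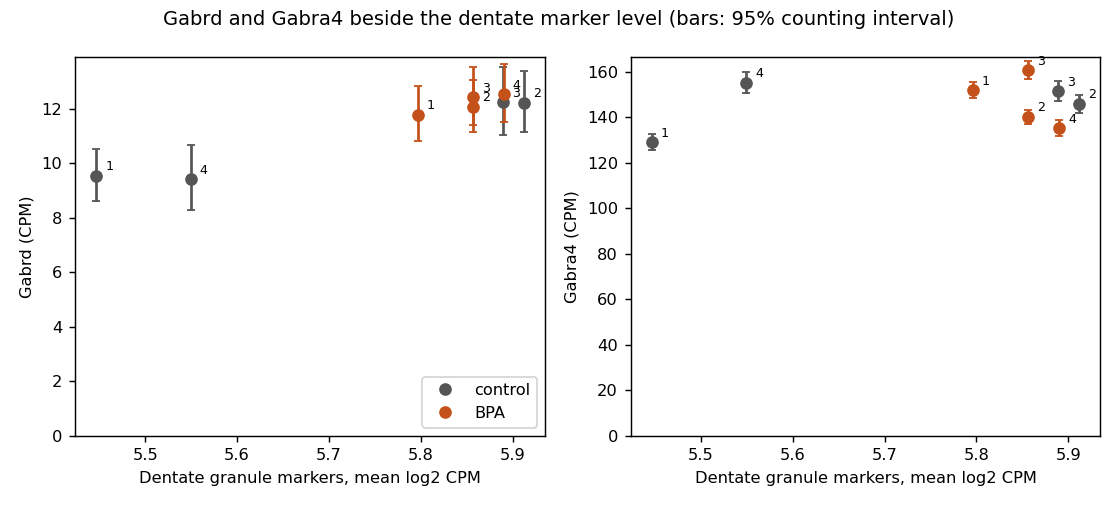
Gabrd and Gabra4 (CPM, axis from 0, bars the 95% counting interval) against the mean log2 CPM of 12 dentate granule markers, 1 point per mouse, controls grey and BPA orange. Control mice 1 and 4 lie apart at 5.45 and 5.55 on the marker axis; both are low for Gabrd, and for Gabra4 only mouse 1 is low.

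Gabra4 did not share the low values of Gabrd in control mouse 4. Its levels were 129, 146, 151 and 155 CPM in control mice 1 to 4 and 152, 140, 161 and 135 CPM in BPA mice 1 to 4. The lowest mouse was a control and the highest a BPA mouse, and the groups overlapped over most of their range. Means were 145 ± 11.6 and 147 ± 11.5 CPM (SD, n = 4 each), or 1.01-fold (95% interval 0.914 to 1.12; log2 0.017 ± 0.067; edgeR adjusted p 0.983). In a fit that also holds log2 library total the log2 fold change was 0.20 (edgeR unadjusted p 0.0427, adjusted p 0.998), and without control mouse 1 it was -0.037.

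Gabra5, the other extrasynaptic alpha subunit, was at 166, 172, 179 and 206 CPM in control mice 1 to 4 and at 179, 179, 190 and 162 CPM in BPA mice 1 to 4. Control mouse 4, low for Gabrd, was the highest of all 8 for Gabra5. The fold was 0.985 (95% interval 0.888 to 1.09; log2 -0.022 ± 0.069; edgeR adjusted p 0.979). The estimate was 0.045 without control mouse 4 and 0.15 in the fit with log2 library total.

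Among the synaptic alpha subunits, Gabra2 had the lower estimate. Gabra2 (chromosome 5, 70957597 to 71095849), found at synapses on pyramidal neurons, was at 71.7, 67.7, 76.3 and 70.1 CPM in control mice 1 to 4 and at 68.1, 69.4, 59.3 and 72.7 CPM in BPA mice 1 to 4. BPA mouse 3 was the lowest of all, and the other BPA mice lay within the control range. The fold was 0.944 (95% interval 0.859 to 1.04; log2 -0.084 ± 0.062; edgeR adjusted p 0.955), and the log2 value was -0.028 without BPA mouse 3. Gabra3 (chromosome X, 72432681 to 72656848) was at 96.6, 77.3, 77.6 and 88.6 CPM in control mice 1 to 4 and at 78.7, 85.1, 88.5 and 89.6 CPM in BPA mice 1 to 4. Its controls split the opposite way to Gabrd, with mice 1 and 4, the pair with high CA1 markers, high, and the fold was 1.00 (95% interval 0.902 to 1.12; edgeR adjusted p 0.993). Without control mice 1 and 4, a fit chosen after the data were seen, the log2 fold change of Gabra3 was 0.14 ± 0.061 (edgeR unadjusted p 0.0415, adjusted p 0.999). These mice are the highest controls for Gabra3, so a higher estimate follows from leaving them out.

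The beta subunits form the GABA binding site together with an alpha subunit. Gabrb2 was the most evenly expressed of the 7 members, with an SD of 3.77% of the mean in controls and 2.36% in BPA mice. Gabrb2 (chromosome 11, 42419757 to 42629028) was at 540, 504, 528 and 550.2 CPM in control mice 1 to 4 and at 505, 494, 512 and 522 CPM in BPA mice 1 to 4. All 4 BPA mice were below the control mean of 530.4 ± 20.01 CPM, yet 3 of them were above control mouse 2. The fold was 0.958 (95% interval 0.898 to 1.02; log2 -0.061 ± 0.043; edgeR unadjusted p 0.177, adjusted p 0.955), and the log2 value was -0.020 without control mice 1 and 4 and -0.013 in the fit with log2 library total (edgeR unadjusted p 0.850). Leaving out control mice 1 and 4 was chosen after the data were seen. These mice are the highest of all 8 for Gabrb2, so a smaller difference follows from leaving them out. Gabrb1 was at 58.04, 55.9, 67.5 and 67.2 CPM in control mice 1 to 4 and at 56.9, 62.1, 60.1 and 63.98 CPM in BPA mice 1 to 4. The BPA values lay inside the control range, and the fold was 0.980 (95% interval 0.887 to 1.08; edgeR adjusted p 0.975).

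**Figure D3:**
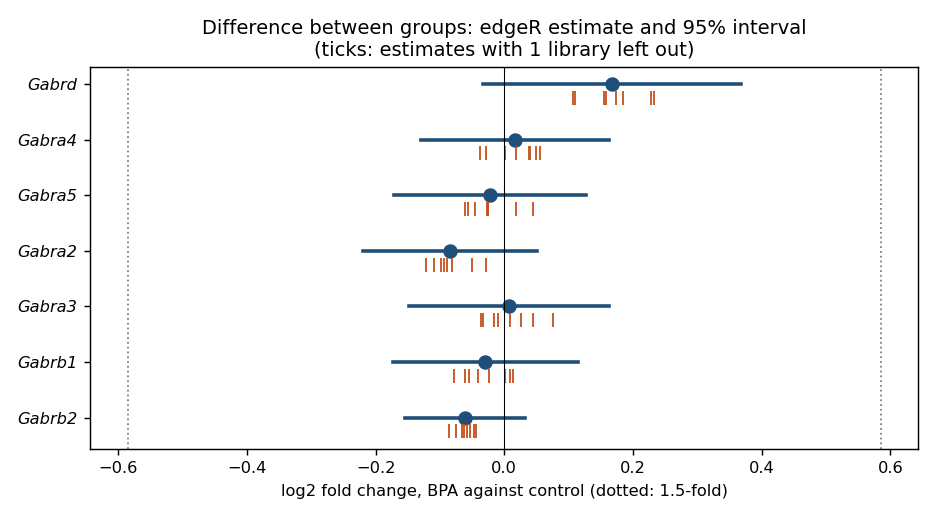
Log2 fold change of BPA against control for each subunit with its 95% interval (edgeR, 4 mice per group); ticks show the estimates with 1 library left out and dotted lines mark 1.5-fold. Every interval spans 0 and lies inside the dotted lines; only Gabrd, Gabra2 and Gabrb2 keep 1 sign whichever single library is left out.

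Per length of transcript, Gabrb2 was the highest of the 7 subunits and the extrasynaptic Gabra5 the next in 8 of 8 mice. Divided by the length of all annotated exons, Gabrb2 was highest at 81.7 ± 3.04 CPM per kb (SD over 8 mice), followed by Gabra5 at 60.2 ± 4.64, Gabra4 at 24.02 ± 1.76, Gabra3 at 21.7 ± 1.77, Gabra2 at 9.09 ± 0.646, Gabrb1 at 4.44 ± 0.325 and Gabrd at 4.01 ± 0.448 CPM per kb. Gabra5 was thus 2.51 times as high as Gabra4, in 8 of 8 mice. Neighbours in this order had separate ranges except for 2 pairs: Gabra4 was above Gabra3 in 6 of 8 mice and Gabrb1 above Gabrd in 7 of 8. The length used bears on both pairs. With the longest transcript, Gabra4 was 1.53 times Gabra3 in 8 of 8 mice. A further length, the exons of transcripts matched to RefSeq, was chosen after the data were seen. With it Gabrd was 1.34 times Gabrb1 and Gabra5 1.88 times Gabra4, both in 8 of 8 mice. Reads were counted on refGene, to which this length is nearer. The length of all annotated exons may include bases where no read was counted (6360 bases for Gabrb2, against 3989 matched to RefSeq).

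**Figure D4:**
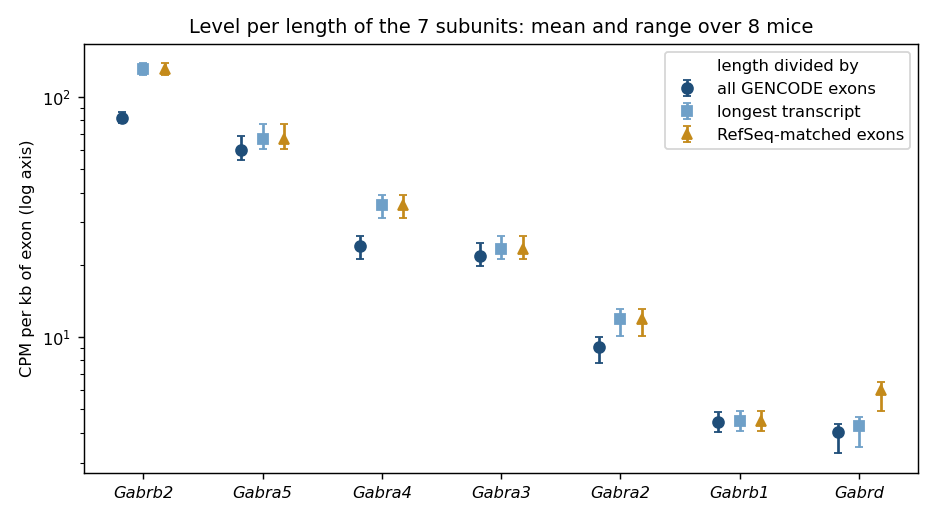
Level per length (CPM per kb of exon, log axis) of each subunit as the mean and range over 8 mice, with 3 definitions of transcript length. The order from Gabrb2 at 81.7 CPM per kb downwards is kept except that Gabrd and Gabrb1 change places when RefSeq-matched exons are used.

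The proportion of extrasynaptic subunits did not separate the groups. The proportions themselves depend on the transcript length used. Gabrd, Gabra4 and Gabra5 together made up 39.5, 43.5, 43.1 and 44.3% of the counts per kb of the 7 subunits in control mice 1 to 4, and 44.3, 43.6, 45.1 and 40.5% in BPA mice 1 to 4. Each group held 1 low mouse, control mouse 1 and BPA mouse 4, and 3 mice close together. Means were 42.6 ± 2.15% and 43.4 ± 1.99% (SD, n = 4 each), a difference of 0.786 percentage points that is smaller than either SD. With the longest transcript the means were 38.2 and 39.02%, with RefSeq-matched exons 38.5 and 39.4%, and from raw counts 31.0 and 31.8%. No p is given for this or the other shares, since they combine members chosen with earlier results known. Leaving out control mouse 1 turned the difference to -0.259 points, and leaving out another mouse gave 0.210 (BPA mouse 3) to 1.73 points (BPA mouse 4).

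Most of that share came from Gabra5, at 29.2 ± 1.59% in controls and 29.4 ± 1.45% in BPA mice, and Gabra4, at 11.5 ± 0.782% and 11.9 ± 0.706%. Gabrd alone made up 1.63, 2.15, 2.06 and 1.48% in control mice 1 to 4 and 2.03, 2.10, 2.06 and 2.18% in BPA mice 1 to 4. Here again control mice 1 and 4 were low and the other 2 controls lay among the BPA mice. Within the alpha subunits, Gabra4 plus Gabra5 made up 69.3, 74.1, 74.1 and 74.9% in control mice 1 to 4 and 74.6, 73.0, 74.9 and 70.4% in BPA mice 1 to 4, means of 73.1 ± 2.54% and 73.2 ± 2.08%. Gabrb1 made up 5.11 ± 0.393% of the 2 beta subunits in controls and 5.21 ± 0.236% in BPA mice. The longest transcript and RefSeq-matched exons both gave 3.29 and 3.36% for this beta share, and raw counts 10.5 and 10.7%. The alpha share was 74.3 and 74.5% with either of these lengths and 67.5 and 67.9% from raw counts. For both shares the difference was smaller than either SD. That of the alpha share changed sign without control mouse 1 (-1.14 points), BPA mouse 1 (-0.356) or BPA mouse 3 (-0.438), and that of the beta share without control mouse 1 (-0.0275).

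**Figure D5:**
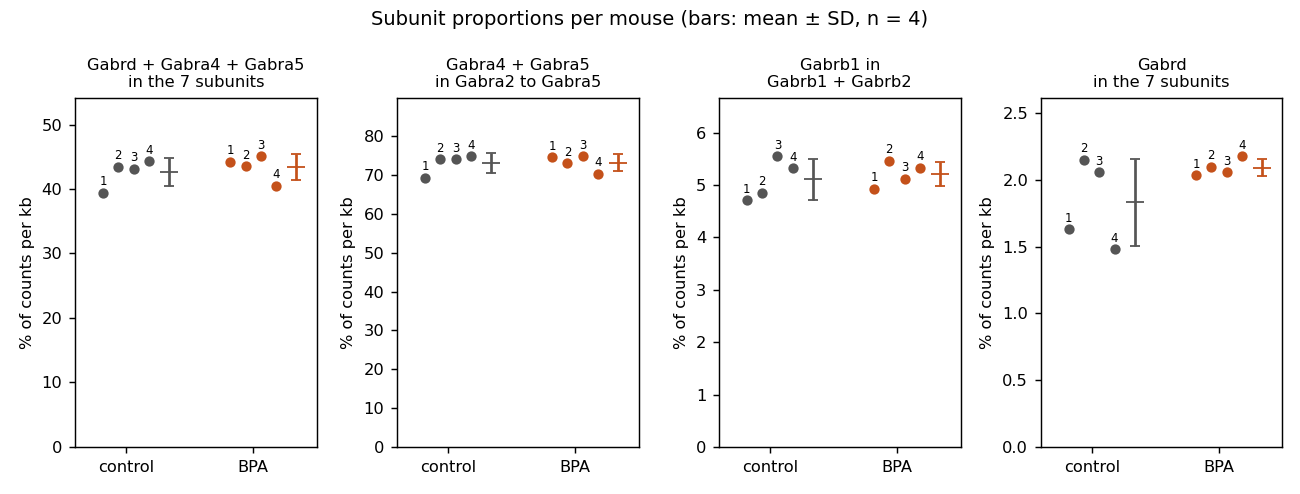
Subunit proportions per mouse in percent of counts per kb of exon, with mean ± SD of the 4 control (grey) and 4 BPA (orange) mice; axes start at 0. The extrasynaptic share runs from 39.5 to 44.3% in controls and from 40.5 to 45.1% in BPA mice, and the groups overlap in every panel.

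Across the 8 mice, Gabra4 and Gabra5 varied together. Their log2 CPM gave Pearson's r of 0.797 (exact permutation p = 0.0167, adjusted over 21 pairs 0.318) and Spearman's rho of 0.929 (exact permutation p = 0.00223, adjusted 0.0469). Without the 2 mice farthest from the median of Gabra4, r was 0.613. By Pearson's r 0 of the 21 pairs of subunits passed after adjustment. The lowest adjusted value, 0.318, was shared by this pair and by Gabrb2 with Gabrd. For Gabrb2 with Gabrd r was -0.759 (exact permutation p = 0.0303) and rho -0.310 (exact permutation p = 0.462). That r was -0.845 within the controls and 0.713 within the BPA mice, so its sign differed between the groups. Without the 2 mice farthest from the median of Gabrb2, control mouse 4 and BPA mouse 2, it was -0.642. The head-to-head pair Gabra4 and Gabrb1 gave r of 0.197 (rho 0.119, exact permutation p = 0.631 for r). These relations include mice of both groups and of different depth.

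Each subunit was also set beside the tested genes with a mean of at least 10 CPM, 8971 genes in all, by Pearson's r of log2 CPM over the 8 mice, as a description only. Nearest to Gabrd were Prox1 (r = 0.968) and Pgam5 (0.961). Without control mice 1 and 4 these values were 0.107 and 0.834, so the likeness to Prox1 rests on those 2 mice. For the mean of the 12 dentate markers, r with Gabrd was 0.716 without them. Nearest to Gabra4 were Syndig1 (0.973) and Sema7a (0.960), and to Gabra5 Plppr4 (0.966) and Ssbp4 (0.963). Gabra2 was nearest to D2hgdh (0.984) and Kcna6 (0.974), and among the genes nearest to Gabra3 was Greb1l (0.946). Gabrb1 was nearest to Taf9b (0.964) and Ppig (0.963), and Gabrb2 to Srebf2 (0.981) and Olig1 (0.977). With so many genes and 8 mice, values this high are found for every member.

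Other genes of the receptor and its partners did not pass the test either. Of 12 further GABA-A subunit genes, 7 had enough reads to test, 0 passed the edgeR threshold (0 at an unadjusted p under 0.05), and 2 had an estimate above 0 and 5 below (median log2 fold change -0.036). Gabrg1, a gamma subunit in the chromosome 5 cluster beside Gabra2, had a control mean of 33.2 ± 1.25 CPM and a BPA mean of 32.3 ± 1.19 CPM (fold 0.975, 95% interval 0.907 to 1.05). Gabra6, Gabre, Gabrr1, Gabrr3 and Gabrp had too few reads to test, the last 0 reads in all 8 libraries. Of 25 genes of receptor assembly, anchoring and trafficking, 0 passed (1 at an unadjusted p under 0.05, against 4.52% of all genes), with 13 estimates above 0 and 12 below (median 0.016). The one was Nsf, an ATPase of membrane fusion that binds beta subunits, with means of 1076 ± 26.7 CPM in control and 1141 ± 27.1 CPM in BPA libraries, which did not overlap, as in 2.79% of all genes (log2 0.084 ± 0.038; edgeR adjusted p 0.955). Hap1, which links the receptor to transport motors, had a log2 fold change of 0.13 ± 0.075, and Gabarap, a binding partner of gamma subunits, -0.067 ± 0.046. Of 7 genes that make allopregnanolone or its precursors, 5 were tested and 0 passed (0 at an unadjusted p under 0.05). Srd5a1, the steroid reductase, had a fold of 0.967 and Akr1c14, the enzyme of the last step, 1.06, with intervals of 0.864 to 1.08 and 0.793 to 1.42.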

How the data were processed

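The authors deposited raw read counts per gene symbol for 8 libraries, without normalization. The tools were featureCounts 1.5.0 and STAR 2.3.0e after Trimmomatic 0.32, on mm10, per the submitters' processing notes, which also name DESeq2; genes follow refGene per the file headers. Columns were matched to mice by the library code in the title. The sources used here do not give the litters of the mice, and p-values cover the variation among these 8 animals only.

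The main test was edgeR 4.0.16 (R 4.3.3): filterByExpr, TMM scaling, the quasi-likelihood test with 1 group term, two-sided, Benjamini-Hochberg over 15434 genes. Alternatives were DESeq2 1.42.0, limma-voom 3.58.1, RLE scaling, no filter, thinning to the smallest total, depth or dentate markers as a covariate, a replicate block and leaving out libraries; scripts were tested on simulated counts. Log2 CPM used a prior count of 2. Counting intervals are exact Poisson intervals and cover counting error only. Exon lengths and positions come from GENCODE M21 on GRCm38, promoter windows from RefSeq GRCm38.p6. Members, lists and named genes (all 7 members, in each list those past the threshold or with the smallest p or highest level, and the 2 nearest genes per member) were chosen with earlier results of these data known. Gabrg1 was named after its values were seen. Some genes that this rule picks are kept in all tests and counts but not reported here. Of the marker lists, CA1, CA3 and CA2, interneuron, thalamus, striatum, neocortex, cerebellar and astrocyte markers held 0 genes past the adjusted threshold.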

Additional observations from a re-analysis of the deposited data

Results flagged for a closer look

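The share of Gabra4 plus Gabra5 among the alpha subunits was 69.3% in control mouse 1, apart from the other 3 controls at 74.1 to 74.9%. Its gap to the nearest control was 0.857 of the group's range, above Dixon's 95% critical value for 4 samples. In that mouse Gabra4, at 129 CPM, and Gabra5, at 166 CPM, were the lowest of the controls, and Gabra3, at 96.6 CPM, was the highest of all 8 mice. Its dentate marker level, 5.45, was also the lowest of all; its part in the share was not tested. Of 20 groups of 4 values examined in this way 1 stood out, and chance alone flags about 1 in 20.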

How the results depend on the processing

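None of the 7 subunits was called under any of the alternatives run. Leaving out 1 mouse, or 1 per group, cannot move a difference in share by more than 1 SD, so such settings cannot show that it is stable. With another length or raw counts, the differences between groups in the extrasynaptic, alpha and beta shares moved by less than 1 SD between replicates. The shares themselves moved by more: the beta share in controls was 5.11% per exon length, 3.29% with the longest transcript and 10.5% from raw counts. Estimates near 0 changed sign. With log2 library total as a covariate the log2 fold change was -0.049 for Gabra3, 0.15 for Gabra5 and 0.11 for Gabrb1, and that of Gabrb2 shrank from -0.061 to -0.013; thinned to the smallest total, Gabra3 was at -0.0021. Without control mouse 2 and BPA mouse 3 together, the choroid plexus libraries, Gabra3 was at -0.056 and Gabra4 at -0.029. With the dentate marker level as a covariate Gabra4 was at -0.012, and without control mice 1 and 4 Gabra4 was at -0.016, Gabra5 at 0.020 and Gabrd at -0.0027; these were chosen after the data were seen. The cause of these changes was not tested. Leaving out 1 library in turn, the log2 fold change ran from 0.11 to 0.23 for Gabrd, -0.037 to 0.055 for Gabra4, -0.061 to 0.045 for Gabra5, -0.12 to -0.028 for Gabra2, -0.036 to 0.076 for Gabra3, -0.077 to 0.013 for Gabrb1 and -0.085 to -0.044 for Gabrb2. The sign changed without control mouse 2 or 3 or BPA mouse 3 or 4 for Gabra3, without control mouse 1 or BPA mouse 3 for Gabra4, without control or BPA mouse 4 for Gabra5, and without control mouse 3 or 4 or BPA mouse 1 for Gabrb1. In the same way the extrasynaptic share difference ran from -0.259 to 1.73 points, that of the alpha share from -1.14 to 1.07 points and that of the beta share from -0.0275 to 0.253 points.

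The replicate numbers did not pair the samples: deviations of same-numbered mice correlated at -0.123, -0.372, -0.295 and 0.0702. With the replicate block, Gabrd was at 0.18 and 0 of the 7 subunits were called; 0 of all genes were called with or without it. Gabrd, with the fewest reads, is the subunit whose precision counting limits most.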
